A study of Mus musculus with 47 samples.

Results

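Tdg was knocked down with a small interfering RNA (siRNA) in mouse embryonic stem cells (ESCs), and the cells of the G1 phase were compared with G1 cells that had received a control siRNA. The comparison rests on 4 of the 47 samples of the series, chosen by their titles: 2 RNA libraries labelled siTdg G1 and 2 labelled siC G1. The cells were of the established line E14Tg2A, and per the labels' protocols they grew in a serum-free medium with PD0325901, CHIR99021 and leukemia inhibitory factor. Every group used here had this line in common, and the ESC groups had this medium in common. The series title names the question, how the enzyme bears on p53 as the cell cycle proceeds. The other samples hold the same pair of siRNAs in G2M cells, in unsorted ESCs at 48 h and 96 h and in embryoid bodies at day 11, along with chromatin and modified DNA. RNA of day 9 embryoid bodies separated into G1 and SG2M, with either siRNA, is also among them and was not analysed here. The labels give neither the time between siRNA and sorting nor the way phases were separated, and no siRNA sequence. Whether the replicates of a group were grown as separate cultures is not stated either, so the spread behind each p-value may be technical only.

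Thymine DNA glycosylase (TDG) cuts thymine out of G:T mismatches and removes 5-formylcytosine and 5-carboxylcytosine, the bases that TET enzymes make from methylated cytosine. Base excision repair then fills the gap with an unmodified cytosine. In cultured cells TDG protein is plentiful in G1 and is degraded as cells enter S phase. p53 is a transcription factor that raises genes of cell-cycle arrest, apoptosis and repair. A small and changing share of cells in an ESC culture turns on genes of the 2-cell embryo, led by the transcription factor Dux and the Zscan4 cluster.

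Expression is given as RPKM, reads scaled by gene length and library depth, as deposited. Reads assigned to genes lay between 24076402 and 34783249 in the 4 G1 libraries. Tests were run with limma on log2(RPKM + 0.5) over the 12462 genes whose mean was 0.5 RPKM or more, after each library had been set to the same median. Changes are siTdg minus siC on that scale, where those of low genes come out smaller, and a gene was called at an adjusted p under 0.05. The groups of a gene are said not to overlap where, after that scaling, both siTdg libraries lay on the same side of both siC libraries. The 7 G2/M phase markers summed to between 514.0 and 653.7 RPKM in the G1 libraries and to between 1384 and 1470 RPKM in the G2M libraries, as the labels have it. The 8 ESC markers were all above 1 RPKM on average and summed to between 3552 and 5121 RPKM. Fibroblast or feeder markers summed to at most 3.53 RPKM, with 1 of 9 above 1 RPKM and none of the 9 without reads in all 4 libraries. One library stood apart before any comparison. Replicate 2 of siTdg G1 differed from its own replicate by a chi-square of 56.05 per degree of freedom over genes with at least 10 reads, against 24.02 for the 2 siC G1 libraries. Replicates 1 of siC G1 and of siTdg G1 were the closest pair, at 5.34. The 10 most abundant genes took 6.06% of the reads of siTdg G1 replicate 2 and from 4.64% to 5.12% of those of the other 3 G1 libraries.

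Tdg itself stood at 54.8 and 59.6 RPKM in siC G1 and at 9.64 and 7.53 RPKM in siTdg G1. These levels rest on 6433, 7462, 919 and 632 reads. The siTdg mean was 15.0% of the siC mean, and the groups lay far apart. The log2 change was -2.65 (SE 0.17, adjusted p 0.0144 by limma). In G2M the siTdg mean was 16.8% of the siC mean, with a log2 change of -2.54, and the effect in G1 minus that in G2M was -0.10 (SE 0.24). Across genes, same-numbered libraries of siC G1 and siTdg G1 deviated together from their group means (correlation 0.70). The fit has no term for replicate number, so its p-values in G1 can be too large. In this fit Tdg was the only gene called in G1 out of 12462, a share of 0.00802%. The call was lost without any 1 of the 4 G1 libraries, without either siC G2M library (adjusted p between 0.0849 and 0.251 by limma in these fits) and in a fit of the 4 G1 libraries alone (adjusted p 0.0701 by limma), while the change stayed between -2.77 and -2.52.

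Calls being 1, the other genes are described by values. An unadjusted p under 0.05 was found for 407 genes, 3.27% of those tested, 275 of them higher (2.21%) and 132 lower (1.06%) in siTdg. The groups did not overlap for 1562 genes that were higher (12.5%) and 1506 that were lower (12.1%). The 2 directions were more unequal among large changes. A log2 change above 0.5 was seen for 177 genes (1.42%) and one below -0.5 for 40 genes (0.321%). Of the 177, 20 were on the list of 2-cell-like genes, which has 24 tested genes, and 155 were also above 0 in G2M. Of the 40, none was on that list and 26 were also below 0 in G2M. The median change over all genes was 0.03. Of all 12462 genes 7061 were above 0 in G1 and 6464 in G2M, against which the counts above 0 of the lists are to be read.

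**Figure D1:**
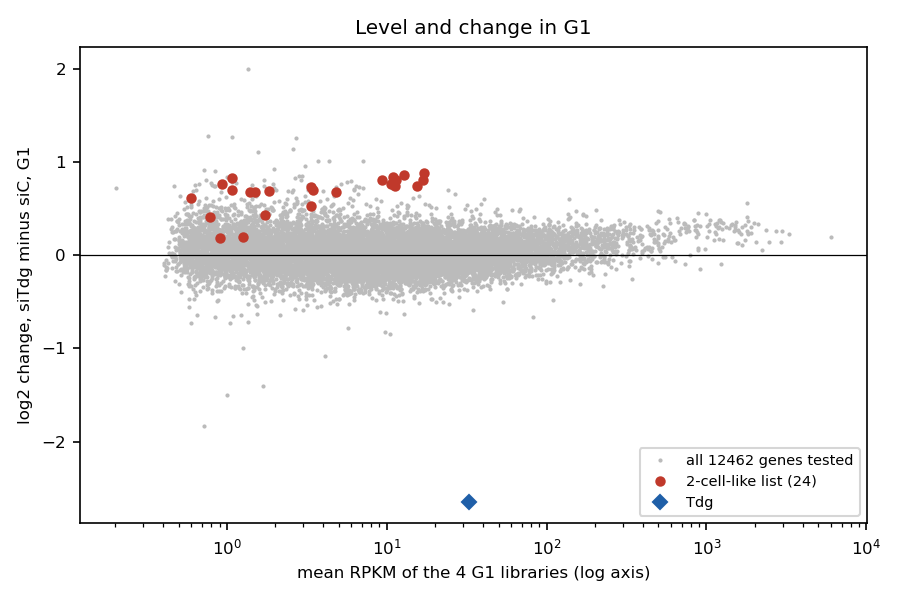
Each point is a gene, with its mean RPKM over the 4 G1 libraries on a log axis and its log2 change (siTdg minus siC) on the other. Tdg lies at -2.65, below every other gene, and the 24 tested genes of the 2-cell-like list lie between 0.18 and 0.88, all above 0.

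The genes of the 2-cell embryo formed the group with the highest median of the 35 lists. Of 46 entries 41 were found in the tables and 24 were abundant enough to be tested. The filter took siC and siTdg libraries together, so a member low in siC could pass through its siTdg level, which favours higher members. Trim43a, at 0.42 and 0.33 RPKM in siC G1 and 0.30 and 0.34 RPKM in siC G2M, passed only in this way. Of the 17 members found but not tested, 9 had a higher and 2 a lower G1 mean in siTdg, and 6 had no reads. All 24 were above 0, with a median log2 change of 0.72 against 0.03 for all genes, and their groups did not overlap for 22, all higher in siTdg (12.5% of all genes were so). An unadjusted p under 0.05 was found for 21 of them, all higher, against 2.21% of all genes. None was called in this fit, which has no term for replicate number, the lowest adjusted p being 0.887 by limma. That does not show that they did not differ. Their summed level was 129.4 and 83.3 RPKM in the siC G1 libraries and 198.3 and 164.3 RPKM in the siTdg G1 libraries. Both siTdg sums were above both siC sums. The median was 0.59 between the replicates 1 and 0.81 between the replicates 2, and without 1 library it lay between 0.50 and 0.87. The list had been known from earlier results of these data, so its direction is a description. In bulk RNA more cells in a state and more RNA per such cell cannot be told apart.

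**Figure D2:**
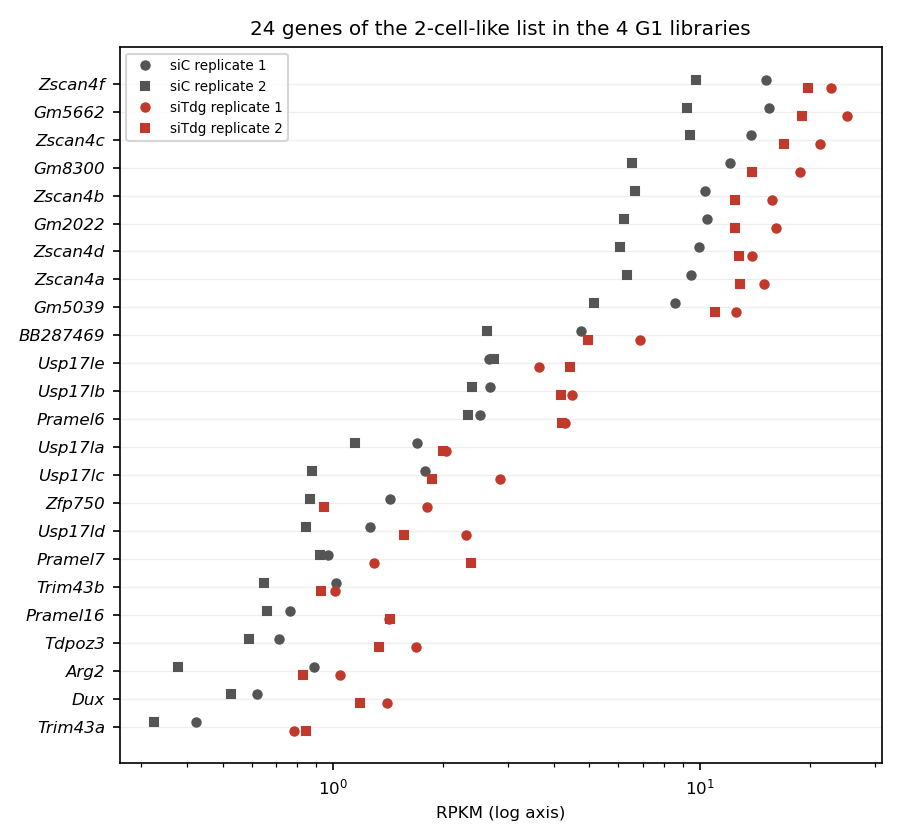
The RPKM of the 24 tested genes of the 2-cell-like list is plotted on a log axis for each G1 library, siC in grey and siTdg in red, replicate 1 as circles and replicate 2 as squares. The red points lie to the right of the grey ones for most genes, with the closest groups for Zfp750 and Trim43b.

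Zscan4 genes encode zinc-finger proteins with a SCAN domain that act at telomeres and in reprogramming, and sit in a cluster on chromosome 7. Zscan4a was at 9.43 and 6.33 RPKM in siC and at 15.0 and 12.9 RPKM in siTdg, a log2 change of 0.84 (SE 0.16). Zscan4f was at 15.1 and 9.79 RPKM in siC and at 22.8 and 19.7 RPKM in siTdg, a log2 change of 0.80 (SE 0.18). Zscan4c was at 13.8 and 9.42 RPKM in siC and at 21.3 and 17.0 RPKM in siTdg. All 5 Zscan4 genes found in the tables were tested, and their log2 changes ran from 0.74 to 0.84. In each of them siC replicate 1 was above siC replicate 2 and below both siTdg libraries. Reads of these genes can be shared among near-identical copies, and how the authors' counting split them is not given in the sources used here, so the 5 values are not independent.

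Members of 2 clusters that move together are shown by a stretch before their RefSeq start sites (build GRCm38.p6), so that the closeness of the copies can be read. RefSeq windows were found for 13 of the 24 tested genes. Capitals mark TATAAAAG, the letters of a TATA box, a string chosen after reading these windows and searched on both strands. Its first base lies 31 bases before the RefSeq start for Zscan4b and Zscan4f, 54 for Zscan4c and 65 for Zscan4d. The 100 bases run 5′ to 3′ on the gene's strand and are lined up on that string. For Zscan4 the stretches are chr7:10905062-10905161 (minus strand) for Zscan4b, chr7:11005611-11005710 (plus) for Zscan4c, chr7:11166194-11166293 (minus) for Zscan4d and chr7:11397804-11397903 (plus) for Zscan4f.
Zscan4b: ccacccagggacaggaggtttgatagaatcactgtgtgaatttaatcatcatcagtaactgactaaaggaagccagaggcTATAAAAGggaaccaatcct
Zscan4c: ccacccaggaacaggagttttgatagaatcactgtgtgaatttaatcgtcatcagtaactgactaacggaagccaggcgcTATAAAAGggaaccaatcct
Zscan4d: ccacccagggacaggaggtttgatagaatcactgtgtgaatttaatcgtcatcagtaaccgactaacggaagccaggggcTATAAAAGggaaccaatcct
Zscan4f: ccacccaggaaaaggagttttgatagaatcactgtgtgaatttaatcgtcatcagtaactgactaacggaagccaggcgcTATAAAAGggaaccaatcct
Between pairs of these 4 stretches from 93% to 99% of the bases were the same.

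The Usp17l genes encode ubiquitin-specific peptidases and also lie on chromosome 7. Their stretches are chr7:104856890-104856989 (plus) for Usp17la, chr7:104842595-104842694 (minus) for Usp17lb, chr7:103416528-103416627 (plus) for Usp17lc and chr7:103252596-103252695 (minus) for Usp17ld.
Usp17la: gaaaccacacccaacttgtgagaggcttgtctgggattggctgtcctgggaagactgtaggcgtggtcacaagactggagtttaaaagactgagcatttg
Usp17lb: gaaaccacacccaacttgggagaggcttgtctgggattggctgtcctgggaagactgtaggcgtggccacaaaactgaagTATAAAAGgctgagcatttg
Usp17lc: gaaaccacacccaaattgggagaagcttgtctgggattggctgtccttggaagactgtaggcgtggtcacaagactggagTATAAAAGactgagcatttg
Usp17ld: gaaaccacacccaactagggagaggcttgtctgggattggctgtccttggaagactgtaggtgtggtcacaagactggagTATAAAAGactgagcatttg
Between pairs of these 4 from 93% to 96% of the bases were the same, and Usp17la is the one without the capital string. The string begins 31 bases before the RefSeq start for Usp17lb, 88 for Usp17lc and 110 for Usp17ld. In the 250 bases before the start TATAAAAG was found for 7 of the 13 genes with a window, and in 1.51% of all 32851 windows. A gene was counted if any of its windows held the string, so these shares differ in unit. The 7 are the 4 Zscan4 and 3 Usp17l genes shown with capitals, which are copies of each other, and a match of letters is not a site.

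Usp17lb was at 2.69 and 2.39 RPKM in siC and at 4.49 and 4.20 RPKM in siTdg, a log2 change of 0.70 (SE 0.11). Its siRNA groups were tight and well apart. All 5 Usp17l genes in the tables were tested, with log2 changes from 0.43 for Usp17la to 0.70 for Usp17lb, and of 0.53 for Usp17le. None of their groups overlapped, and all were higher (12.5% of all genes were so). Copies this close can share reads, so the 5 values are not independent. Dux, the homeobox factor that turns on this programme in the embryo, was at 0.62 and 0.53 RPKM in siC and at 1.41 and 1.18 RPKM in siTdg. Its reads were 42 and 38 in siC and 77 and 57 in siTdg, and its log2 change was 0.77 (SE 0.13). Dux is a repeated gene, so its reads can come from several copies.

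Pramel genes encode leucine-rich repeat proteins of the PRAME family, found in germ cells and early embryos. Pramel6 was at 2.51 and 2.33 RPKM in siC and at 4.29 and 4.21 RPKM in siTdg, a log2 change of 0.73 (SE 0.11). Pramel16 was at 0.76 and 0.66 RPKM in siC and at 1.42 and 1.43 RPKM in siTdg. Pramel7, whose product binds the methylation cofactor UHRF1, was at 0.97 and 0.92 RPKM in siC and at 1.29 and 2.37 RPKM in siTdg, so that its siTdg replicates were spread. Taken as a family by symbol, a choice made after values were seen, 35 Pramel genes were found and 12 tested. Of these 11 were above 0 and 9 had groups that did not overlap, all higher (12.5% of all genes were so), with a median of 0.57 in G1 and 0.58 in G2M.

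The remaining members of the list varied more. Some transcripts known by symbols of predicted genes were at levels like those of Zscan4. Gm8300 was at 12.1 and 6.52 RPKM in siC and at 18.8 and 13.9 RPKM in siTdg. Gm5662 had the highest log2 change of the list, 0.88, and Gm8300, Gm2022 and Gm5039 had 0.86, 0.81 and 0.80, with 0.67 for BB287469. Tdpoz3, of a family with a TRAF and a POZ domain, was at 0.71 and 0.59 RPKM in siC and at 1.68 and 1.34 RPKM in siTdg. Trim43a was at 0.42 and 0.33 RPKM in siC and at 0.78 and 0.84 RPKM in siTdg. Arg2, an arginase, was at 0.89 and 0.38 RPKM in siC and at 1.04 and 0.83 RPKM in siTdg, so that its groups overlapped as RPKM and were apart only after scaling. Groups of Zfp750 (log2 change 0.19) and Trim43b (0.18) overlapped, and the change of Zfp750 lay between -0.10 and 0.49 without 1 library. Of the 17 members found but not tested, 6 had no read in the 4 G1 libraries, 9 had a higher and 2 a lower mean in siTdg, all at or under 0.95 RPKM.

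The same 24 genes can be followed in the other comparisons, whose siTdg and siC libraries are not those of G1. The G2M libraries did enter the same fit, filter and scaling. Same-numbered G1 and G2M libraries also deviated together (correlations of 0.67 in siC and 0.72 in siTdg). The G2M values are therefore not independent of those of G1. In G2M all 24 were above 0, with a median of 0.68, and 22 had groups that did not overlap, all higher (12.4% of all genes). Their sums in G2M were 70.1 and 56.8 RPKM in siC and 120.5 and 110.9 RPKM in siTdg. The effect in G1 exceeded that in G2M for 15 of 24, with a median difference of 0.04. In unsorted ESCs at 48 h 15 of the genes were tested, 11 of them above 0, with a median of 0.39. At 96 h 1 of 15 was above 0, with a median of -0.27, when the change of Tdg was -0.26 (SE 0.34). In embryoid bodies at day 11 only 4 were tested, 2 of them above 0. Zscan4a was at 0.07 and 1.24 RPKM in siC and at 0.11 and 3.39 RPKM in siTdg at 48 h, so that replicates differed by far more than the siRNAs there.

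The ranking by p shows what else stood high. Urml had the smallest p among higher genes whose siTdg mean reached 1 RPKM, at 1.16 and 1.19 RPKM in siC and at 2.27 and 2.23 RPKM in siTdg, a log2 change of 0.74 (SE 0.11). It was followed by Pramel6, Usp17lb, Pramel16 and Dux of the list, then by Tesc, Tdpoz3, Pramel31, Zscan4a, Eif4a3l1, Gpx2 and Dmc1. Tesc, a calcium-binding protein, was at 1.56 and 1.33 RPKM in siC and at 2.71 and 2.47 RPKM in siTdg. Eif4a3l1, a relative of an exon-junction helicase, was at 9.44 and 7.01 RPKM in siC and at 13.8 and 13.1 RPKM in siTdg. Gpx2, a glutathione peroxidase, was at 17.5 and 19.4 RPKM in siC and at 27.0 and 32.4 RPKM in siTdg, a log2 change of 0.70 (SE 0.14). Dmc1, the meiotic recombinase, was at 1.09 and 0.96 RPKM in siC and at 1.67 and 1.61 RPKM in siTdg. None of the 12 was called. In G2M too 11 of them were higher with no overlap (12.4% of all genes), Tesc being the exception. In both phases at once 5.12% of all genes were so.

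Lower genes with the smallest p were led by Mir3098, whose levels rest on 7 and 9 reads in siC and 1 and 2 reads in siTdg. Pacsin2, a membrane-shaping protein of endocytosis, was at 28.1 and 30.0 RPKM in siC and at 21.0 and 18.4 RPKM in siTdg, a log2 change of -0.52 (SE 0.10). Scpep1, a serine carboxypeptidase, was the most abundant of them, at 91.8 and 111.9 RPKM in siC and at 62.1 and 63.2 RPKM in siTdg, a log2 change of -0.66 (SE 0.17). Fam8a1, a cofactor of the HRD1 ubiquitin ligase, was at 15.1 and 14.7 RPKM in siC and at 11.4 and 9.31 RPKM in siTdg. Lrrn2 (-0.63), Noxred1 (-0.64), Mylip (-0.48), Cep97 (-0.44), Cc2d2a (-0.41), Selenoi (-0.39), Zmym2 (-0.36) and Dcaf12 (-0.35) complete the 12 by their log2 changes. Apart from Mir3098 all were lower with no overlap in G2M as well (12.4% of all genes in G2M and 5.41% in both phases). The pooled spread makes this no independent check here either. None was called.

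The p53 question comes next. Trp53, the gene of p53, was at 175.3 and 175.8 RPKM in siC and at 170.0 and 154.5 RPKM in siTdg, a log2 change of -0.09 (SE 0.10). Cdkn1a, the cyclin-dependent kinase inhibitor p21, was at 89.7 and 80.2 RPKM in siC and at 84.4 and 90.3 RPKM in siTdg, a log2 change of 0.07 (SE 0.12) that was below 0 with quantile normalization and without siTdg G1 replicate 2. Mdm2, the ubiquitin ligase of p53, was at 71.1 and 49.7 RPKM in siC and at 67.4 and 58.9 RPKM in siTdg. Ccng1, cyclin G1, was at 138.5 and 112.4 RPKM in siC and at 134.1 and 129.9 RPKM in siTdg. The log2 changes of Mdm2 (0.11, SE 0.22) and Ccng1 (0.11, SE 0.14) were below 0 without siC G1 replicate 2. Groups of Cdkn1a, Mdm2 and Ccng1 overlapped. Those of Trp53 did not and were lower in siTdg, in G1 (12.1% of all genes) and in G2M, where its log2 change was -0.10. In both phases 5.41% of all genes were so. None of the 4 was called.

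**Figure D3:**
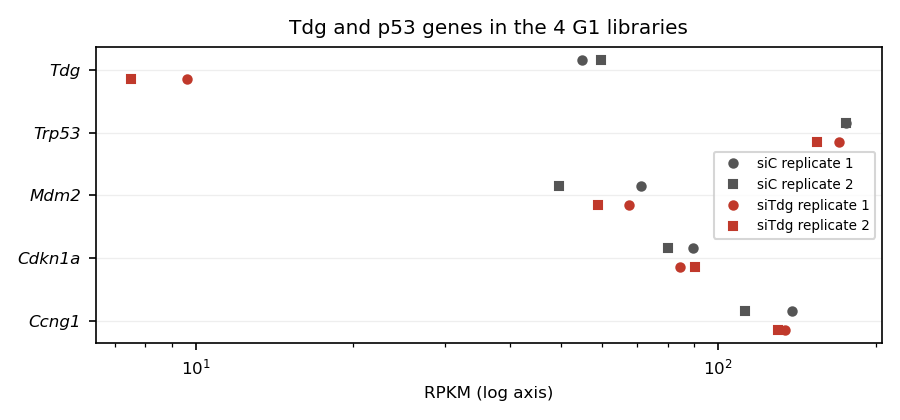
RPKM of Tdg, Trp53, Mdm2, Cdkn1a and Ccng1 in each G1 library on a log axis, siC in grey and siTdg in red, replicate 1 as circles and replicate 2 as squares. Tdg falls from between 54.8 and 59.6 to between 7.53 and 9.64 RPKM, while for Mdm2, Cdkn1a and Ccng1 red and grey points lie among each other.

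The lists of p53 targets hold 50 tested genes, none of them called. Targets of arrest and stress numbered 20, of which 15 were above 0, with a median of 0.11. Gdf15, a secreted stress factor, was at 3.95 and 2.78 RPKM in siC and at 4.89 and 4.72 RPKM in siTdg, a log2 change of 0.50 (SE 0.16). Sfn, the 14-3-3 sigma protein, was at 18.6 and 19.9 RPKM in siC and at 20.3 and 26.5 RPKM in siTdg, with overlapping groups after scaling. Targets of apoptosis numbered 12, of which 9 were above 0, with a median of 0.06 that was 0.00 without siC G1 replicate 2. Groups of Perp (0.31), Bax (0.23) and Ei24 (0.12) did not overlap and were higher. Targets of repair and metabolism numbered 18, of which 12 were above 0, with a median of 0.05. Ephx1, the microsomal epoxide hydrolase, was at 5.76 and 3.72 RPKM in siC and at 8.52 and 7.08 RPKM in siTdg, a log2 change of 0.71 (SE 0.22). Gls2, a glutaminase, had 0.30 and Tigar, a fructose bisphosphatase, 0.15, with groups that overlapped. Groups did not overlap for 8 targets that were higher and for 1 that was lower, out of 50, against 12.5% and 12.1% of all genes. Of the regulators of p53, 17 tested, 7 were above 0, with a median of -0.08. Kat2b, the acetyltransferase PCAF, was at 35.1 and 36.4 RPKM in siC and at 31.7 and 27.5 RPKM in siTdg, with a log2 change of -0.25. The ubiquitin ligase gene Rchy1 had 0.12 and the deubiquitinase gene Usp7 -0.20.

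Genes that act before and after TDG were measured with it. TET enzymes make the bases that TDG removes. Tet1 was at 32.2 and 19.9 RPKM in siC and at 27.3 and 10.9 RPKM in siTdg, and Tet2 at 22.9 and 16.1 RPKM in siC and at 23.3 and 11.2 RPKM in siTdg. For both, replicate 2 was below replicate 1 in either group and groups overlapped. Their log2 changes of -0.51 (SE 0.44) and -0.21 (SE 0.34), and that of -0.07 for Tet3, turned above 0 without siTdg G1 replicate 2. Dnmt3b, a methyltransferase that sets new methylation, was at 19.8 and 20.4 RPKM in siC and at 17.0 and 15.5 RPKM in siTdg, a log2 change of -0.27 (SE 0.10) with no overlap. Dnmt1, which copies methylation, had -0.12, and Uhrf1, its cofactor, 0.05, a value that was below 0 with quantile normalization. Of the 6 genes of that list 5 were below 0, with a median of -0.12, and 5 of the 6 were in the 2 classes of longer genes described further on.

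Other DNA glycosylases were above 0 for 9 of 10, with a median of 0.15 that was 0.00 without siTdg G1 replicate 2. Nthl1, which removes oxidised pyrimidines, was at 13.7 and 15.9 RPKM in siC and at 16.3 and 19.3 RPKM in siTdg. Neil1 had a log2 change of 0.17 and Ung, which removes uracil, one of 0.13. Of the 13 genes of later base excision repair 11 were above 0, with a median of 0.12 that was -0.03 without siTdg G1 replicate 2. Aplf, a strand-break factor, had a log2 change of 0.23 and Xrcc1, a scaffold of repair, one of 0.16. Pcna, the sliding clamp, had 0.15, below 0 with quantile normalization and without siTdg G1 replicate 2, and Parp1 -0.02. None of the 23 was called.

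Pluripotency genes had a median of -0.04 over 35, of which 15 were above 0, and of 0.04 without siTdg G1 replicate 2. Pou5f1, the gene of OCT4, was at 672.9 and 702.3 RPKM in siC and at 713.1 and 932.2 RPKM in siTdg, a log2 change of 0.28 that was -0.02 with quantile normalization. Dppa5a was at 1363 and 1548 RPKM in siC and at 1658 and 2646 RPKM in siTdg. Gbx2, a homeobox gene of naive cells, was at 10.0 and 10.1 RPKM in siC and at 9.18 and 6.66 RPKM in siTdg. Il6st, the receptor chain through which leukemia inhibitory factor signals, had a log2 change of -0.22. For these 4 genes the siTdg library farther from siC was replicate 2.

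Wnt response genes were below 0 for 11 of 15, with a median of -0.11 and 4 that were lower with no overlap (12.1% of all genes). Sp5, a direct target of beta-catenin, was at 0.94 and 1.29 RPKM in siC and at 0.63 and 0.60 RPKM in siTdg, a log2 change of -0.49 (SE 0.15). Axin2, the feedback inhibitor of the pathway, was at 8.25 and 8.49 RPKM in siC and at 7.20 and 6.16 RPKM in siTdg, a log2 change of -0.28 (SE 0.10). Ctnnb1, the gene of beta-catenin, had -0.07. Genes of the cholesterol synthesis list were below 0 for 17 of 23, with a median of -0.14 that was 0.05 without siTdg G1 replicate 1, and 6 of the 23 were lower with no overlap (12.1% of all genes). Stard4, a sterol carrier, was at 22.5 and 22.4 RPKM in siC and at 18.7 and 16.9 RPKM in siTdg. Msmo1, a sterol oxidase, had a log2 change of -0.27, with overlapping groups. None of these genes was called.

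Antigen presentation genes were few, and 5 of 6 were higher with no overlap (12.5% of all genes), with a median of 0.30. H2-D1, a class I molecule, was at 2.19 and 1.88 RPKM in siC and at 2.96 and 2.95 RPKM in siTdg, a log2 change of 0.48 (SE 0.11). Psmb9, a subunit of the immunoproteasome, was at 0.48 and 0.63 RPKM in siC and at 1.01 and 0.99 RPKM in siTdg. Tapbp, tapasin, had 0.12. B2m, the light chain of class I molecules, was at 10.1 and 14.8 RPKM in siC and at 10.3 and 13.3 RPKM in siTdg, with overlapping groups. Stress genes were spread. In the integrated stress response 23 of 29 were above 0, with a median of 0.12 that was -0.01 without siC G1 replicate 1 and -0.04 without siTdg G1 replicate 2. Ddit3, the transcription factor CHOP, was at 7.27 and 7.01 RPKM in siC and at 11.2 and 9.16 RPKM in siTdg, a log2 change of 0.51 (SE 0.15). Nupr1, a stress-induced chromatin protein, had 0.55 (SE 0.28). Heat shock genes had a median of 0.14, of -0.01 with quantile normalization, with 0.27 for Hspb1, 0.21 for Hsph1 and 0.26 for Hspa8, that of Hspa8 below 0 without siTdg G1 replicate 2. None of these was called.

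**Figure D4:**
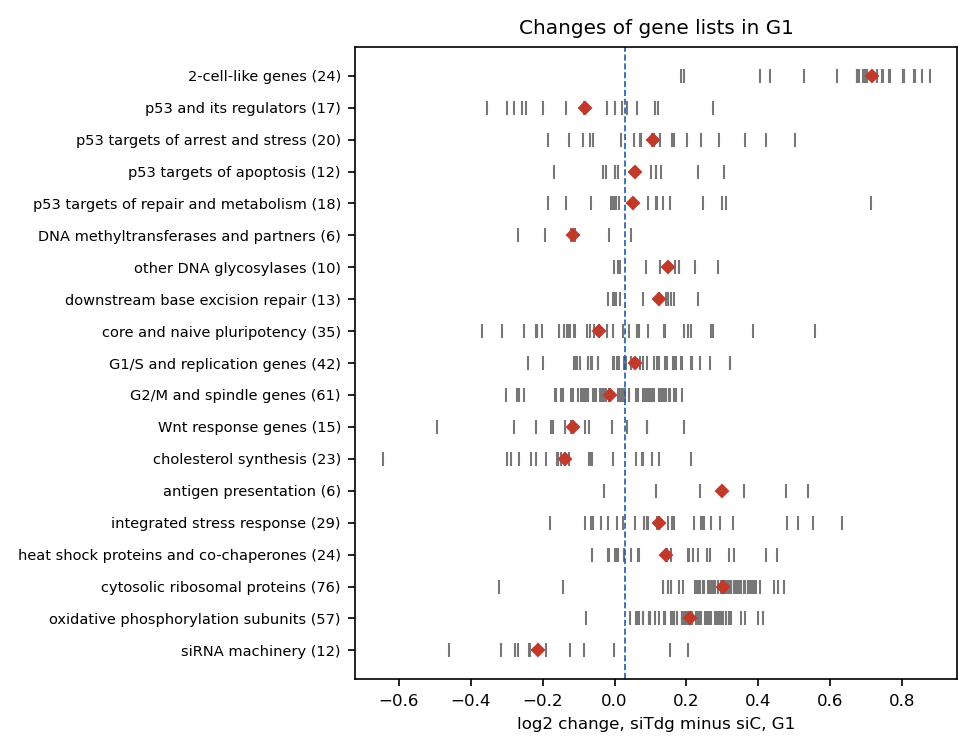
Each tick is the log2 change (siTdg minus siC) of a tested gene in G1, each diamond the median of its list, and the dashed line the median of all genes at 0.03. The number of tested genes stands after each name. The 2-cell-like list stands apart at 0.72, while the other medians shown lie between -0.21 and 0.30.

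Genes of the cell cycle did not stand out. Of 42 genes of G1/S and replication 28 were above 0, with a median of 0.06 that was -0.05 without siTdg G1 replicate 2. Prim2, a primase subunit, had a log2 change of 0.32 (SE 0.21) and Clspn, the checkpoint adaptor claspin, -0.20 (SE 0.13). Of 61 genes of G2/M and the spindle 30 were above 0, with a median of -0.01, and 10 of the 61 were lower and 1 higher with no overlap, against 12.1% and 12.5% of all genes. Depdc1a was at 8.48 and 9.05 RPKM in siC and at 6.77 and 7.48 RPKM in siTdg. Smc2, a condensin subunit, had -0.17. Ccnb1, cyclin B1, was at 131.8 and 149.0 RPKM in siC and at 127.8 and 175.1 RPKM in siTdg, with overlapping groups. None was called. Genes of the machinery that uses siRNAs were below 0 for 10 of 12, with a median of -0.21. Ago1, an Argonaute protein, had -0.23 (SE 0.10), Tnrc6b -0.27, Drosha -0.12 and Tarbp2 0.15.

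Gene length moved with the change, and more so in 1 replicate. Genes were split by length into 4 classes of 3115, the length being read from the reads that 1 RPKM is worth. The median log2 change in G1 was 0.17 in the shortest class, 0.07 and 0.00 in the next, and -0.10 in the longest. Between the replicates 1 these medians ran from 0.05 to -0.05, and between the replicates 2 from 0.29 to -0.16. In G2M they ran from 0.01 to -0.02 and from 0.10 to -0.09. Cytosolic ribosomal proteins, 74 of 76 in the 2 classes of shorter genes, were above 0 for 74, with a median of 0.30 that was 0.11 between the replicates 1, 0.50 between the replicates 2, -0.01 without siTdg G1 replicate 2 and 0.06 with quantile normalization. Rps21 was at 385.4 and 446.4 RPKM in siC and at 474.8 and 669.3 RPKM in siTdg. Rpl36 had a log2 change of 0.45 (SE 0.25) and Rps2, at 2360 RPKM or more in each library, one of 0.26 (SE 0.24). Subunits of oxidative phosphorylation, all 57 in those classes, were above 0 for 56, with a median of 0.21 and of -0.09 without siTdg G1 replicate 2. Cox8a and Cox7c had 0.30 and 0.32, and none of the 133 genes was called. Of the siRNA machinery 9 of 12 were in the longest class.

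**Figure D5:**
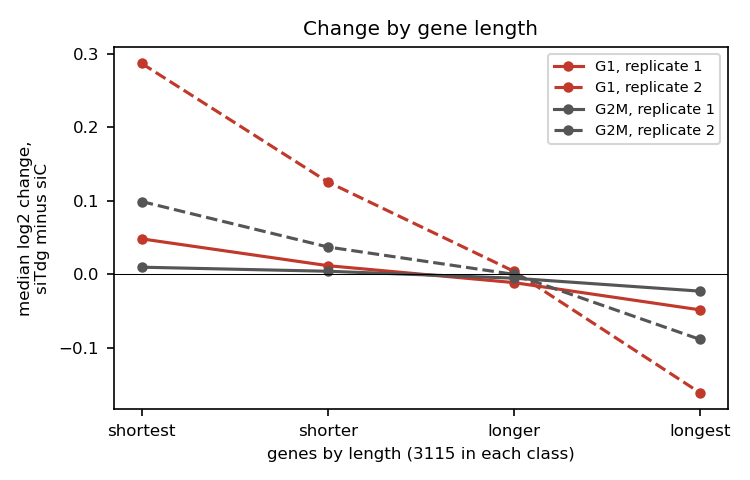
The median log2 change (siTdg minus siC) of genes in 4 classes of gene length is plotted for same-numbered libraries in G1 (red) and G2M (grey), replicate 1 with solid and replicate 2 with dashed lines. The dashed red line runs from 0.29 in the shortest to -0.16 in the longest class, and the solid red line from 0.05 to -0.05.

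With the median of its own length class taken from each gene, an alternative chosen after seeing the data, the ribosomal median was 0.15 and that of oxidative phosphorylation 0.05. The siRNA machinery stood at -0.11, the DNA methyltransferase list at -0.02, and other glycosylases at 0.02. Of the p53 targets, those of arrest and stress stood at -0.01, with 10 of 20 above the median of their class. Those of apoptosis stood at 0.05 and those of repair and metabolism at 0.05. The 24 genes of the 2-cell-like list, 22 of them in the classes of shorter genes, had a median of 0.63 and were all above the median of their class. Cholesterol genes stood at -0.13, Wnt response genes at -0.08 and antigen presentation genes at 0.19. What part length has in the other values was not tested.

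The Tdg effect in G1 was set against that in G2M gene by gene. No gene was called by limma for the difference, and 40 of 12462 had an unadjusted p under 0.05 (0.321%). Same-numbered libraries deviated together and the fit has no term for replicate number, so these p-values can be too large. The lack of calls does not show that the effect was the same in both phases. In all, 638 genes were higher with no overlap in both phases (5.12%) and 674 were lower in both (5.41%), while 100 (0.802%) had groups apart in opposite directions. Among genes whose highest group mean of the 4 reached 1 RPKM, Cnih2, a cornichon protein, Krtcap3 and Dnaja4, a co-chaperone, had the 3 smallest p with the effect in G1 above that in G2M. Dnaja4 was at 1.07 and 1.04 RPKM in siC G1 and at 1.41 and 1.31 RPKM in siTdg G1, against 0.98 and 0.88 RPKM in siC G2M and 0.63 and 0.77 RPKM in siTdg G2M. Cnih2 was below 1 RPKM in all 4 G1 libraries. Mir3098, Mir6972 and Platr20 had the smallest p with the effect in G1 below that in G2M. Mir6972 rests on 4 and 4 reads in siC G1 and 2 and 1 in siTdg G1. Platr20, a long RNA of ESCs, was at 2.24 and 1.80 RPKM in siC G1 and at 1.34 and 1.25 RPKM in siTdg G1, with overlapping groups in G2M.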

How the data were processed

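Libraries were stranded and made from total RNA after removal of ribosomal RNA, per the labels' protocols. The authors deposited RPKM, in one table for the siC phases and one for the siTdg phases, and per the submitters' processing notes TopHat, DESeq2 and build mm9 were used. Annotation, counter and versions: not given in the sources used here. The deposited fold-change tables of sorted cells compare phases, so the comparison of siRNAs within G1 was computed here. Their mean normalised counts, other values deposited by the authors, served only to turn RPKM back into reads. All positive values (100%) came out whole within 0.01 reads, and gene lengths were the same in both tables for 19249 of 19249 genes with reads in both. No pair of libraries was within sampling noise.

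Tables were joined by symbol. limma 3.58.1 in R 4.3.3 fitted log2(RPKM + 0.5) of the 8 sorted libraries with 4 group means, eBayes with a trend and Benjamini-Hochberg adjustment over all genes, two-sided. Sorted libraries that share a number are labelled replicate 1 and 2 in each group, and no term for it was fitted. Precision is limited by 2 libraries per group. Named genes are Tdg, Trp53, Cdkn1a, Mdm2 and Ccng1, the 12 higher and 12 lower with the smallest p (a mean of 1 RPKM or more in whichever G1 group is higher, no overlap, no clone symbol), for each list up to 4 by test statistic and level, and 3 each way for the phase difference (a mean of 1 RPKM or more in any of the 4 groups). Lists that are not described, and some genes that the rule allows, are not reported here. Tested genes of the 2-cell-like list are all named, a choice made after values were seen. Members and lists were chosen with earlier results of these data known. A further 4 columns of RPKM match no sample and were not used. As alternatives served pseudocounts, filters and scalings other than these, eBayes without trend, the G1 libraries alone, limma-voom on recovered reads, a replicate block, leaving out each library and, added after seeing the data, limma-voom with that block and a subtraction by length.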

Additional observations from a re-analysis of the deposited data

Results flagged for a closer look

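Of the genes named above, 5 had siRNA groups that did not overlap in either phase and lay in opposite directions. Over all genes 100 of 12462 did so (0.802%). All 5 were among the genes named for the smallest p of the difference between phases, a choice that favours opposite directions. The Tdg effect in G1 minus that in G2M was 0.75 for Cnih2, 0.69 for Krtcap3 and 0.55 for Dnaja4 on the log2 scale. It was -2.15 for Mir3098 and -1.52 for Mir6972. None was called by limma's test of the difference over all genes. The unadjusted p ran from 0.000401 for Mir3098 to 0.0155 for Dnaja4. Mir3098 had 1 to 9 reads and Mir6972 1 to 4 reads in the G1 libraries, and Krtcap3 20 to 31.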

How the results depend on the processing

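The count of 1 gene called in G1 became 5 with no filter on low values (Gm51297, Mir15a, Mir19a, Mir6970 and Tdg, all lower), 0 with the 4 G1 libraries alone, where Tdg had -2.65, and lay between 0 and 1 without 1 library. Tdg then lay between -2.77 and -2.52. The difference between phases gave 1 call with no filter. Same-numbered libraries deviated together (correlations from 0.56 to 0.72), but with 2 pairs per comparison numbers were not taken as pairing. With a replicate block 2 genes were called, Tdg and Gm4971. With limma-voom on recovered reads and a replicate block, chosen after seeing the data, 40 were called, 35 higher and 5 lower, and 11 of the 40 were on the 2-cell-like list. These 11 include all 5 Zscan4 genes, Pramel6 and Usp17lb. Of other genes named, Pramel31, Eif4a3l1, Gpx2, Ephx1 and Nupr1 were called as higher, and Pacsin2, Fam8a1 and Scpep1 as lower. Without the block limma-voom called 1.

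Some changes near 0, none of them called, turned sign. With quantile normalization Cdkn1a had -0.0016, Uhrf1 -0.056, Pcna -0.046 and Pou5f1 -0.022. Without 1 library Cdkn1a lay between -0.015 and 0.16, Mdm2 between -0.12 and 0.35, Ccng1 between -0.016 and 0.24, Tet1 between -1.11 and 0.095, Tet2 between -0.68 and 0.26 and Tet3 between -0.35 and 0.21. Likewise Dnmt1 lay between -0.25 and 0.0037, Uhrf1 between -0.0037 and 0.098, Pcna between -0.051 and 0.35, B2m between -0.32 and 0.26, Hspa8 between -0.10 and 0.61, Ccnb1 between -0.14 and 0.39 and Zfp750 between -0.10 and 0.49. The cause was not tested. Of 108 genes, 74 kept their direction and their side of the threshold under every alternative. Of 35 list medians, 17 moved by less than the spread between libraries under every alternative, that of the 2-cell-like genes among them (0.50 to 0.87). The spread is that of each list itself, so a list whose libraries differ widely passes easily. Also among the 17 are the medians of ribosomal proteins and oxidative phosphorylation, which turned sign. Without 1 library these lay between -0.01 and 0.61 and between -0.09 and 0.51. The count is thus no measure of a stable direction. With 2 libraries per group, changes near 0 could not be given a direction.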
